A study of Mus musculus with 5 samples.

Results

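Etf1, Gspt1, Upf1, Upf2, Upf3b, Smg1, Smg5 and Smg6 encode proteins that end translation or destroy mRNAs on which translation ended too early. These 8 genes were chosen by name, not by a threshold on measured values, and all 8 were found once each among the 18349 genes of the deposited expression list. The data come from MEL cells, a mouse erythroleukemia line, with neither treatment nor genetic change named in the labels. The labels call the processed data day 0 without saying what the day counts from. For 3 samples, CLIP-seq recovered RNA in contact with PABPC1, a cytoplasmic protein that coats poly(A) tails: ultraviolet light links protein to RNA, an antibody pulls the protein down, and the attached fragments are sequenced as tags. In the other 2 samples poly(A)-selected mRNA was sequenced. The authors merged the CLIP-seq samples into 1 list of 90337 peaks and 1 list of 11907 deletion sites, and gave 1 RPKM value a gene (read density, scaled to gene length and to library depth). Replicate error is therefore unknown for all values here, and no test between samples was possible.

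Termination begins when a stop codon enters the ribosome. The release factor eRF1, the product of Etf1, reads the stop codon, and the GTPase eRF3, the product of Gspt1, helps it free the finished protein. eRF3 is known to bind PABPC1 through its N-terminal part, and PABPC1 close to a stop codon is known to favour normal termination over nonsense-mediated decay. In that decay pathway the helicase UPF1 meets UPF2 and UPF3B, the kinase SMG1 phosphorylates UPF1, and SMG5 and SMG6 bind phosphorylated UPF1. SMG6 is itself an endonuclease.

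The erythroid identity of the cells was checked first. All 10 erythroid marker genes were listed, from RPKM 19.6 for Hbb-bs to 428 for Klf1. Fibroblast markers were checked because the growth protocol also names NIH-3T3, a fibroblast line. Of 8 such markers, 1 passed RPKM 1 (Thy1 at 65.3), 3 more were listed below it and Col1a2, Col3a1, Dcn and Lum were not listed. None of 7 markers of other blood cells reached RPKM 1, the highest being Csf1r at 0.610.

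Sequences that carry the findings are shown here in 2 sets. The first holds the bases around the strongest deletion sites of each gene other than Etf1, whose sequence is not shown. Such sites place a protein contact more closely than a peak because reverse transcriptase can skip the cross-linked base. Capitals mark the bases in the authors' list of deletion sites. Sequences are those of GENCODE M21 transcripts, read 5′ to 3′, with mm10 coordinates.
Gspt1, 7 nt after the stop codon (chr16:11220806-11220835, minus strand): aaagactaagcatttTcttgatgaccctgc
Gspt1, 25 nt after the stop codon (chr16:11220788-11220817, minus strand): tgatgaccctgcacaAtactgtgaggaaaa
Upf1, 61 to 63 nt after the stop codon (chr8:70332407-70332436, minus strand): tcttattctgggtaATAaaaaataaaaata
Upf2, 25 nt before the transcript end (chr2:6056663-6056692, plus strand): ctttgccgatgctgcAataaagtgttgtaa
Smg5, 254 nt before the end of the stop codon, in coding sequence (chr3:88360359-88360388, plus strand): aagagctttgagcggCataaactgaagagg

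The second set shows the last poly(A) signal before the annotated 3′ UTR end of each gene named below, where most of them held a peak. Capitals mark the signal AATAAA, searched on the transcript strand. The Upf2 signal is the one in the first set, where the deleted A is its first base.
Gspt1, shorter 3′ UTR (chr16:11220054-11220083, minus strand): tgtttgcaaattAATAAAacagcattcctg
Upf1 (chr8:70331526-70331555, minus strand): ctttttgtcaccAATAAAacatgaacaaac
Upf3b (chrX:37091689-37091718, minus strand): tgtaatgctgtcAATAAAtttccacttcgt
Smg1 (chr7:118131318-118131347, minus strand): caaaaaaataaaAATAAAggttcaagtctt
Smg5 (chr3:88362302-88362331, plus strand): agactcaagcttAATAAAgacccccttccc
Smg6 (chr11:75164411-75164440, plus strand): ttttgtttccttAATAAAtttttagttatg

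The mRNAs of the release factors were the most abundant of the 8. Etf1 stood at RPKM 283, rank 274 of the 10211 protein-coding genes with RPKM of at least 1, and Gspt1 at RPKM 169, rank 575. Smg5 followed at RPKM 107, Upf1 at 77.2, Upf2 at 41.7, Upf3b at 34.6, Smg1 at 29.2 and Smg6 at 13.9. The highest and lowest thus differed 20.3-fold in RPKM. The members had a median RPKM of 59.5, against 19.6 over the 10211 genes.

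For 4 members the RPKM could be turned back into whole reads with the exon length of all annotated transcripts. Etf1 rested on 37049 reads, Upf2 on 8045, Upf3b on 4882 and Smg6 on 4156. The 95% Poisson intervals of counting error were RPKM 280 to 286 for Etf1, 40.8 to 42.6 for Upf2, 33.7 to 35.6 for Upf3b and 13.5 to 14.4 for Smg6. These 4 intervals did not overlap, but they leave out any spread between cultures, which cannot be read from 1 value a gene.

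PABPC1 peaks were found in the exons of all 8 genes, beside 96.6% of the 10211 genes. A peak's score, a whole number given by the authors without a stated meaning, was read as its height in tags. At 99.8% of the 10137 deletion sites under a peak the covering tags numbered no more than the score. A total of the tags in the peak would also meet that limit, so the check cannot tell height from a total. Etf1 held 13 exonic peaks with a summed height of 1317 tags, Gspt1 20 peaks with 1300, Upf1 6 with 737, Smg5 15 with 524, Upf2 18 with 512, Smg1 39 with 406, Upf3b 12 with 300 and Smg6 10 with 47. In all there were 133 exonic peaks, 54 in 3′ UTRs and 79 in coding sequence (CDS). By midpoint none fell in a 5′ UTR, where 14.1% of the 10211 genes held one. The Upf2 peak over the start codon still covered 18 of the 103 nt of its 5′ UTR. At least 10 exonic peaks were present in 7 of the 8, against 25.9%. These are also long mRNAs, with a median exon length of 4533 nt against 3236 nt, and abundant ones, with a median RPKM of 59.5 against 19.6. The 10211 genes were not matched to them in length or RPKM, here or in the comparisons below.

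Summed height followed mRNA level within the 8 genes. Spearman's rho between RPKM and summed height was 0.95 over the 8 genes, which share the same 2 pooled measurements, and 0.68 over the 10211 genes. For 3′ UTR height alone it was 0.93 over the 8, for CDS height 0.64, and for the number of peaks 0.12. Both release factor genes stood near the top in summed height and Smg6 stood lowest, 28.0-fold below Etf1.

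**Figure D1:**
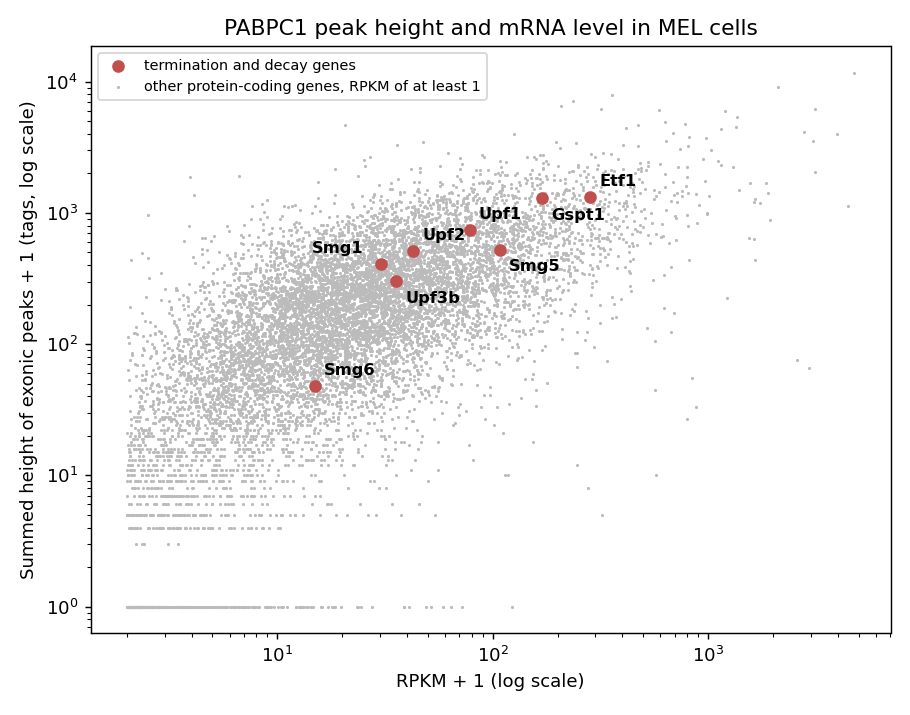
Summed height of exonic PABPC1 peaks plus 1 (tags, y, log scale) against RPKM plus 1 (x, log scale) for the 8 termination and decay genes (red, named) and the other protein-coding genes with RPKM of at least 1 (grey). The red points run from Smg6 at 47 tags to Etf1 at 1317 tags and lie inside the grey cloud; grey points at 1 on the y axis are genes without an exonic peak.

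Relative to abundance the members were spread around the middle of the transcriptome. The log2 ratio of (summed height + 1) to (RPKM + 1) was 3.75 for Smg1, 3.59 for Upf2, 3.24 for Upf1, 3.08 for Upf3b, 2.94 for Gspt1, 2.28 for Smg5, 2.21 for Etf1 and 1.68 for Smg6. Their median was 3.01, against 2.78 over the 10211 genes, and they ran from percentile 24.8 (Smg6) to percentile 75.1 (Smg1) of those genes. Height is not divided by length in this ratio and RPKM is, and Smg1 has the longest exons of the 8, at 15557 nt. Per kb of exon, Smg1 had 26.1 tags, Etf1 355, Gspt1 350, Upf1 160, Upf3b 128, Smg5 118, Upf2 99.0 and Smg6 8.04. The members' median percentile was 56.4 with summed height, 37.9 with height per kb and 36.3 with the tallest peak alone, so whether they stood above or below the middle depended on that choice.

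The 3′ UTR carried most of the peak height in 7 of the 8 genes, beside 85.3% of the 10211. Its share of summed height was 92.8% in Upf1, 75.8% in Smg5, 73.6% in Gspt1, 68.2% in Smg1, 63.1% in Upf2, 57.5% in Etf1, 57.4% in Smg6 and 47.3% in Upf3b. Over the 8 genes together it was 69.3%, or 3564 of 5143 tags, against 77.8% over the 10211 genes. Their 3′ UTRs are shorter parts of the exons, 30.3% of exon length against 45.0%. The median share over single genes was 65.7% in the members and 90.1% in all genes, and every member except Upf1 was below that 90.1%.

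**Figure D2:**
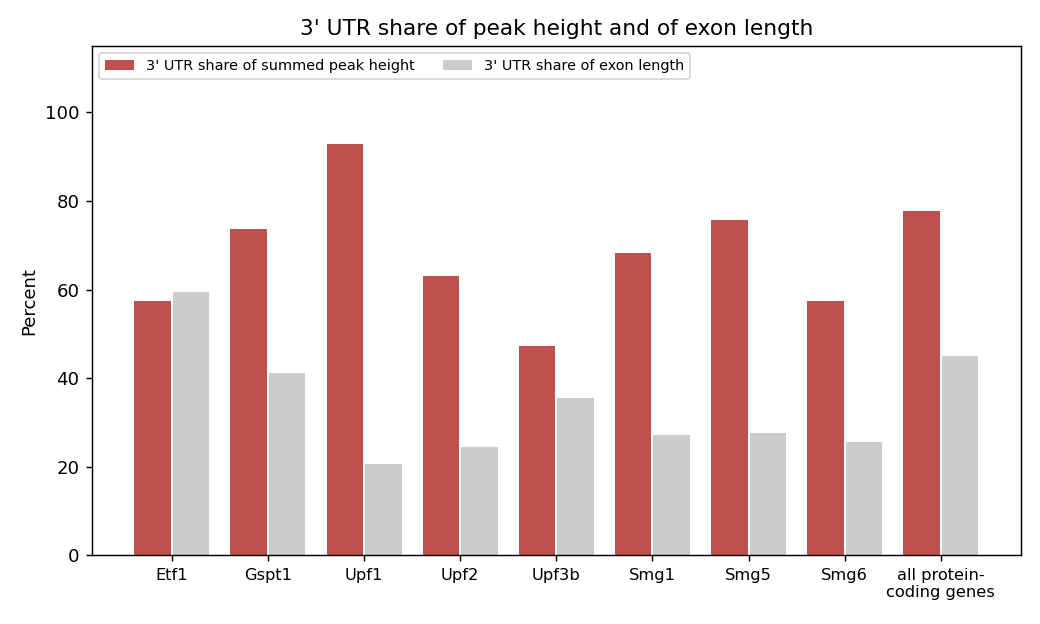
Share of summed exonic peak height that lay in the 3′ UTR (red bars, percent) beside the share of exon length that is 3′ UTR (grey bars, percent), for each of the 8 genes and for the 10211 protein-coding genes together. Upf1 shows the widest gap, 92.8% of height against 20.7% of length, and Etf1 the narrowest, 57.5% against 59.4%.

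Height per kb put the release factor gene Etf1 below the other members in its 3′ UTR to CDS ratio. Its CDS held 426 tags per kb and its 3′ UTR 344, a 3′ UTR to CDS ratio of 0.806. In the other 7 genes the 3′ UTR was the denser, by 1.53 times in Upf3b, 3.47 in Gspt1, 3.84 in Smg6, 5.16 in Upf2, 5.57 in Smg1, 7.76 in Smg5 and 45.5 in Upf1. A denser 3′ UTR was thus found in 7 of the 8, beside 89.2% of the 9843 genes with an exonic peak and both regions annotated. Of the 6705 genes with height in both regions 7.25% had a ratio no higher than that of Etf1, and the median ratio was 6.97. The CDS of Upf1 held 2 peaks of 44 and 9 tags over 3375 nt. Peaks covered 83.6% of the CDS of Etf1, 59.0% of that of Gspt1, 42.1% of Upf3b and 24.9% of Smg5, and from 4.89% (Upf1) to 18.3% (Upf2) in the other 4 genes. Over the 8 genes 19.4% of the CDS lay under peaks, against 14.0% over all genes, and 56.2% of the 3′ UTR, against 30.9%.

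Coding sequence under the peaks was richer in A than the rest of the same coding sequence in all 8 genes, beside 73.1% of the 7735 genes whose CDS was partly covered. Over the 8 together A made up 34.3% of CDS bases under peaks and 27.6% of those outside them, beside 29.6% and 25.5% over the 10211 genes. Smg6 had 39.0% under its peaks and 27.1% outside, and Upf3b 43.6% and 38.1%. In 3′ UTRs the share of A was higher under peaks in 7 of the 8, beside 75.0% of 8511 genes, with Upf2 the exception at 30.4% under peaks and 31.5% outside. Pooled 3′ UTR bases were 27.6% A under peaks and 24.2% outside in the 8 genes, beside 28.2% and 25.5% over all genes. Among coding peaks above 9 tags that lay within 1 exon, those richest in A, picked after their values were seen, were in these genes: a peak of 13 tags in Upf2 (chr2:5957670-5957708) was 61.5% A over 39 nt, and a peak of 26 tags in Upf3b (chrX:37096960-37097015) was 55.4% A over 56 nt.

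In Etf1, which encodes the stop codon reader, the tallest peak covered the stop codon and ran to 961 nt after it. It spanned chr18:34904027-34905073 on the minus strand, 1047 nt, and reached 426 tags, 32.3% of the gene's height. The list does not say where in the peak that height was reached. Its deletion sites were covered by 164 tags at 45 nt after the stop codon and by 90 to 341 tags at 349 to 495 nt. A second 3′ UTR peak of 245 tags lay over the transcript end (chr18:34902757-34903058), and coding peaks reached 161 tags (chr18:34905980-34906131) and 138 tags (chr18:34913551-34913696). The 9 coding peaks together made 560 tags.

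Gspt1, the eRF3 gene, had a similar layout with less in the coding sequence. Its tallest peak, 604 tags, ran from 50 nt before the end of the stop codon to 472 nt after it (chr16:11220355-11220877, minus strand). Fewer tags, 190 and 167, covered its deletion sites at 7 and 25 nt after the stop codon. The second peak, 224 tags, lay over the end of the shorter annotated 3′ UTR of 775 nt (chr16:11220005-11220130). The longer annotated 3′ UTR beyond that end held 3 further peaks, of 47, 30 and 18 tags. The 14 coding peaks ranged from 6 to 84 tags and made 343. Among 30-nt words of the Gspt1 transcript 7.18% recur in transcripts of other genes, most often 4930594C11Rik, against 0% to 0.481% for the other 7, and no source used here says how the authors treated such reads.

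Upf1, the helicase gene, had its tallest peak near the stop codon. A peak of 406 tags and only 145 nt, 55.1% of the gene's height, lay directly behind the stop codon (chr8:70332338-70332482, minus strand). The last splice junction of this mRNA falls 3 nt after the stop codon. The peak began 3 nt upstream of the last exon, and a coding peak of 44 tags lay on the other side of that intron. Further 3′ UTR peaks had 197 tags over the transcript end, 68 and 13.

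Upf2, Smg5 and Smg1 differed from these 3, with their tallest peak at the far end of the 3′ UTR. Upf2, an adaptor between UPF1 and UPF3 proteins, had 256 of its 512 tags at its end (chr2:6056370-6056703), and no other 3′ UTR peak above 22. A coding peak of 91 tags lay from 127 to 28 nt before the end of the stop codon (chr2:6051512-6051611). Smg5 had 343 tags at its end (chr3:88362016-88362340), 65.5% of its height, while its other 5 peaks in the 3′ UTR had 8 to 13 tags. Smg1, with 39 peaks, had no dominant one: 56 tags at chr7:118131309-118131489, ending 1 nt short of the annotated transcript end, made 13.8% of its height, and its 21 coding peaks had 3 to 15 tags.

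Upf3b and Smg6 carried the smallest sums. Upf3b, whose product ties UPF2 to exon junction complexes, had its tallest peak in coding sequence at 73 tags (chrX:37095520-37095647), next to 70 tags over the transcript end (chrX:37091669-37091819). The Smg6 peaks did not pass 8 tags in exons, with 8 over the transcript end (chr11:75164398-75164448), and 1 intronic peak of 9 tags was taller. All of these Smg6 peaks were at or below the median height of the whole list, 9 tags. A peak of at least 74 tags, the 90th percentile of the list, was present in Etf1, Gspt1, Upf1, Upf2 and Smg5, 5 of the 8 beside 55.3% of the 10211 genes.

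**Figure D3:**
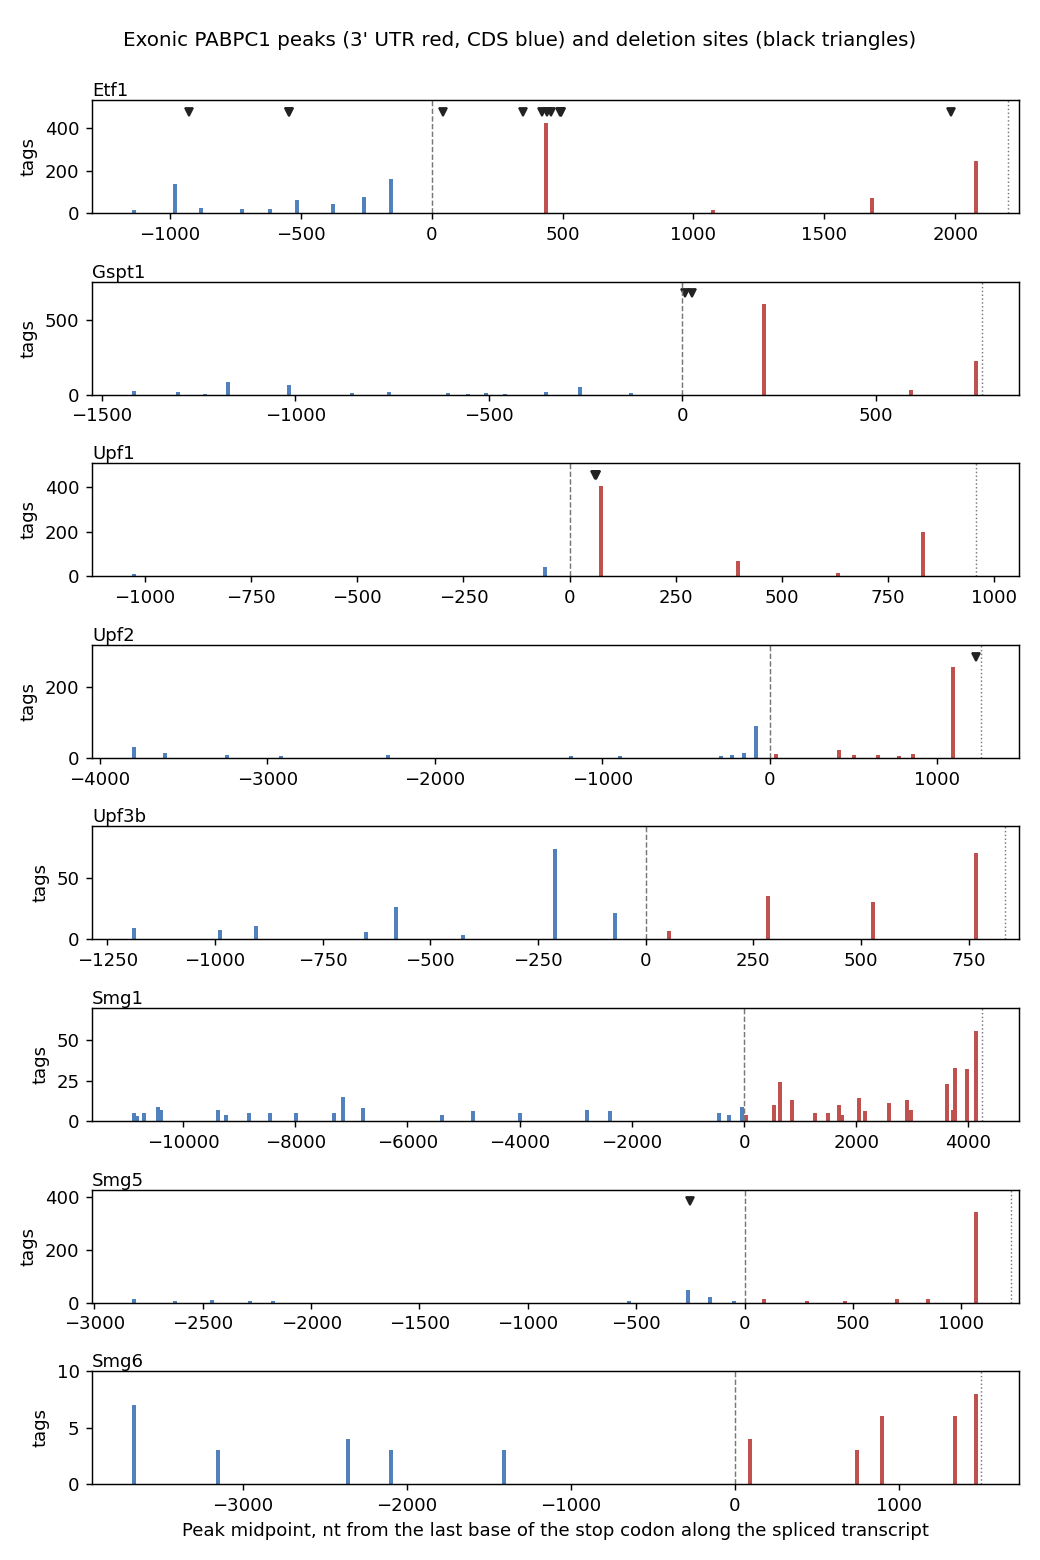
Exonic peaks of the 8 genes along the spliced transcript: x, peak midpoint in nt from the last base of the stop codon (dashed line; dotted line, annotated transcript end); y, peak height in tags, on a scale of its own for each gene. Red marks 3′ UTR peaks, blue CDS peaks and black triangles deletion sites; in Etf1, Gspt1 and Upf1 the tallest bar (426, 604 and 406 tags) stands closer to the stop codon than to the end, and in Upf2, Smg1 and Smg5 the tallest bar (256, 56 and 343 tags) stands at the end. The transcript drawn for Gspt1 has the shorter 3′ UTR, so its 3 peaks beyond that end are not drawn.

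A peak covered the last base of the stop codon in 6 of the 8 genes, beside 51.0% of all genes, the exceptions being Smg5 and Smg6. The annotated transcript end lay under a peak in 7 of the 8, Smg1 being the exception, beside 48.0%, and the tallest exonic peak was the one over the end in Upf2, Smg5 and Smg6, 3 of 8 beside 33.0%. A peak over the start codon was seen in Upf2 alone, beside 10.9% of genes. Intronic peaks were found in Upf1, Upf2, Smg5 and Smg6, 5 in all with 4 to 16 tags, beside 35.1% of genes with at least 1.

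Deletion sites were found in the exons of Etf1, Gspt1, Upf1, Upf2 and Smg5, 5 of 8 genes beside 37.0% of the 10211. Etf1 held 12 of the 19 exonic sites, and 0.793% of genes held 10 or more. Gspt1 held 2, Upf1 3, Upf2 1 and Smg5 1, and Upf3b, Smg1 and Smg6 none. Joining sites within 10 nt left 14 runs, 9 of them in Etf1. A 3′ UTR site was present in 4 of the 8 genes, beside 35.0%. Of the 19 sites, 15 lay in a 3′ UTR, 78.9% (exact 95% binomial interval 54.4 to 93.9, counting error only), against 90.0% of 9672 sites over all genes. Coding sites were present in Etf1 (3 sites) and Smg5 (1 site), while 4.97% of the 10211 genes held one.

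The 3′ UTR sites of the members were nearer to the stop codon than to the transcript end in all 5 of Gspt1 and Upf1 and in 8 of 9 of Etf1, but not in Upf2. Within 100 nt after the stop codon lay 6 of the 15, 40.0% against 13.6% of 8709 sites over all genes, and within 100 nt of the transcript end 1, 6.67% against 38.2%. With a limit of 500 nt the counts were 13 after the stop codon, 86.7% against 52.0%, and 2 before the end, 13.3% against 59.9%. The median distance after the stop codon was 420 nt, against 466 nt, and the median distance before the end 1708 nt, against 250 nt. Etf1 alone gave 8 of the 13, all in its tallest peak. In the remaining genes, the 5 sites of Gspt1 and Upf1 lay 7 to 63 nt after the stop codon and the site of Upf2 lay 25 nt before the end. The number of sites is small, and sites in the same peak share their tags.

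Upf1 had the most deletions at 1 base. At chr8:70332421, 62 nt after the stop codon, 54 of 297 tags carried a deletion, 18.2% (exact 95% binomial interval 14.0 to 23.0). Its neighbours were deleted in 33 of 308 tags, 10.7% (7.49 to 14.7), and 20 of 295 tags, 6.78% (4.19 to 10.3). As printed above, these 3 bases lie in a stretch of A and T that holds AATAAA and AAAAAA. The interval of the middle base overlapped that of the first neighbour and not that of the second. Adjoining bases share tags, which separate intervals ignore, and a difference between the bases was not tested.

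The Gspt1 sites were weaker, with 14 of 190 tags (7.37%, interval 4.09 to 12.1) and 9 of 167 tags (5.39%, 2.49 to 9.98). Neither had AATAAA within 20 nt, and the hexamer ATATAA and the hexamer AAAAAA were also missing from that window. The Upf2 site was deleted in 18 of 242 tags (7.44%, 4.47 to 11.5) at the first A of its AATAAA. The coding site of Smg5 was deleted in 9 of 21 tags, 42.9% with a wide interval of 21.8 to 66.0, and its deleted base is a C.

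Etf1 sites ranged from 3.66% of 164 tags, 45 nt after the stop codon, to 21.4% of 28 tags in coding sequence. The site with the most deletions, 23 of 133 tags (17.3%, 11.3 to 24.8), lay 218 nt before the transcript end. A group of 7 sites lay 349 to 495 nt after the stop codon, with 11 to 20 deletions each. None of the 12 had one of those 3 hexamers within 20 nt.

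**Figure D4:**
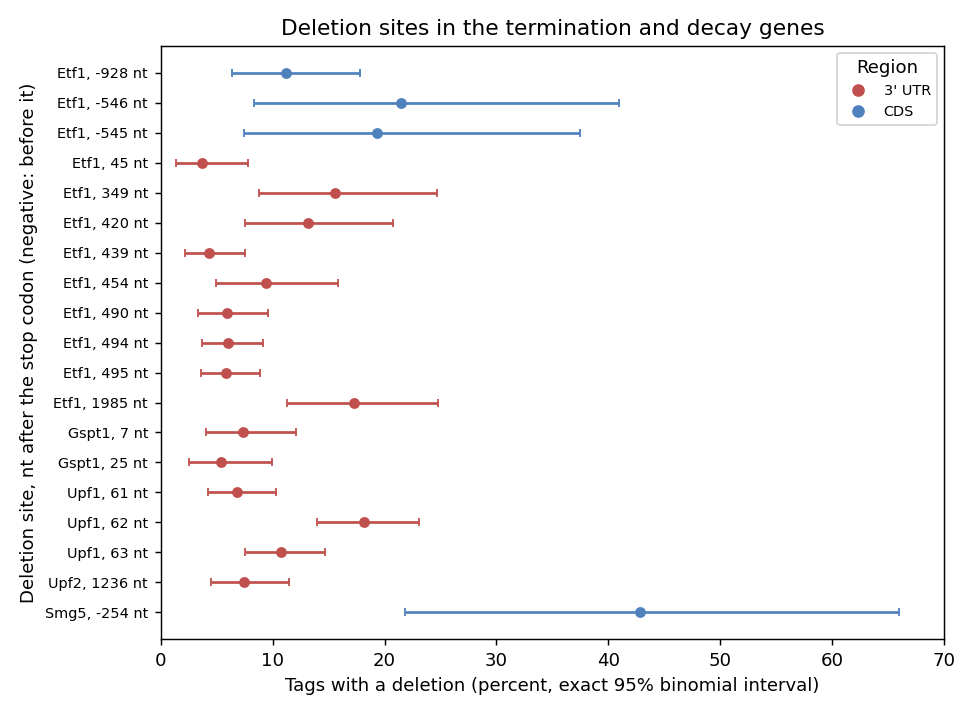
Share of tags with a deletion (x, percent; bars, exact 95% binomial interval) at each of the 19 exonic deletion sites, named by gene and nt after the stop codon (negative before it). Red marks 3′ UTR and blue CDS; the 3′ UTR site of Upf1 at 62 nt (18.2%) stands above its neighbours, and the Smg5 coding site (42.9%) has the widest interval.

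Across the 19 sites 4 had AATAAA within 20 nt, 21.1% against 31.3% over all 9672 sites. AAAAAA was near 3 sites, 15.8% against 11.8%, and ATATAA near none, against 13.0%. At least 1 of these hexamers was near 4 of the 19, 21.1% against 49.0%, and those 4 were the adjoining Upf1 sites and the Upf2 site. Etf1 decided this order: without its 12 sites AATAAA was near 4 of 7, 57.1% against 31.3%. The same 4 of 7 had at least 1 of the hexamers, 57.1% against 49.0%. The exact 95% binomial interval, 18.4 to 90.1, includes both shares over all genes. It treats the 3 adjoining Upf1 sites as independent, though they form 1 run, so it is too narrow and no conclusion is drawn from it. Motifs were searched on the transcript strand alone. The deleted base was A at 9 sites, T at 8 and C at 2, against 45.1% A, 48.3% T and 3.22% C over all sites. The share of tags with a deletion had a median of 9.38% over the 19 sites, against 10.7%.

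Of the 25 other genes of the pathway, 23 were listed with RPKM of at least 1. All 23 held an exonic peak, beside 96.6% of the 10211 genes. The 3′ UTR held most of the height in 21 of them, beside 85.3% of the 10211. A deletion site was held by 10 of the 23, beside 37.0% of the 10211 with one in an exon. The median log2 ratio of height to RPKM was 3.01 in the 8 genes, against 2.26 in these 23 and 2.78 in all 10211, and the median 3′ UTR share was 65.7% in the 8 genes, against 88.8% in the 23. Among the highest ratios were those of Smg9 (4.83), which encodes a regulator of the SMG1 kinase, and the methyltransferase gene N6amt1 (3.80), whose product modifies eRF1. The lowest were those of Rnps1 (0.43), a factor bound to exon junction complexes, the ATPase gene Ruvbl1 (0.76) and Upf3a (0.78). The tallest peaks lay in the 3′ UTRs of Rbm8a, an exon junction core gene (1188 tags), Ruvbl2 (900 tags) and the ribosome recycling gene Abce1 (704 tags). Abce1 held 6 deletion sites, and Rbm8a, Ruvbl2 and Pnrc2 held 3 each.

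A pair of members have a paralog in the list. Gspt1 stood at RPKM 169, against 0.045 for Gspt2, a second eRF3 gene, which held 1 coding peak of 10 tags. Upf3b stood at RPKM 34.6, against 41.6 for Upf3a, and held 300 tags in 12 peaks, against 72 tags in 5 peaks for Upf3a. The 3′ UTR held 47.3% of the height in Upf3b and 18.1% in Upf3a, and in both the tallest peak lay in coding sequence.

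The genes most like the release factor genes were sought by distance over log2 RPKM, log2 summed height and the 3′ UTR share of height, each divided by its SD over 9868 protein-coding genes with an exonic peak. For Etf1 they were Tomm70a (distance 0.165), Lyar (0.225), Top2a (0.278), Hnrnpu (0.315) and Smc1a (0.333). For Gspt1 they included Ddx5 (0.123), Mrpl20 (0.125), Txnl1 (0.185) and Swi5 (0.215). The likeness rests on 3 values from pooled lists. Deletion sites, which the measure did not use, numbered 12 in Etf1 beside 4 to 16 in its 5 neighbours, and 2 in Gspt1 beside 3 to 12 in the 4 genes named.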

How the data were processed

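Per the labels, 1 peak list and 1 deletion list stand for all 3 CLIP-seq samples and 1 RPKM table for both mRNA-seq samples. Per the submitters' processing notes the build was mm10 and the tools included HTSeq 0.6.0, TopHat2 2.0.12, Novoalign 3.02.02 and cutadapt 1.4.2; roles were not listed. The authors' peak score is a whole number without a stated meaning, read here as height in tags. The deposited deletion counts give tags deleted at a base, and a second number in the list was read as the tags covering it. The sources used here give no thresholds for either list. The deposited RPKM values leave out genes at 0. With 1 read in 1 kb worth RPKM 0.0284, the values gave whole reads within 0.01 for 100% of 3560 genes under 200 reads, a pooled depth of 35251228 reads.

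Peaks (by midpoint) and sites were placed on GENCODE M21 basic transcripts by strand, in the order 3′ UTR, 5′ UTR, CDS, non-coding exon, intron. The transcript with the longest CDS was used for base shares, for codons and ends under peaks, and for distances and hexamers in the members. Hexamers at the deletion sites of all genes were read from the longest transcript that gives the site its region. The comparison set was protein-coding genes with RPKM of at least 1, and a pseudocount of 1 was added in ratios, which understates those of low genes. Medians of height and ratio and counts out of the 10211 genes include genes without a peak. Medians of 3′ UTR share do not, nor do counts said to be limited to genes with a peak, height or partly covered region. Intervals are exact (Clopper-Pearson or Poisson) at 95% and cover counting error only, since tags and reads without molecular identifiers are not independent molecules. The members and lists were chosen with earlier results of these data known. Named genes were the 8 members and, of the pathway list, the 3 highest and 3 lowest ratios, the 3 tallest peaks, those with 3 or more deletion sites and the paralogs of members, with the 5 nearest genes for Etf1 and Gspt1; some genes that this rule names are not reported here. Printed sites were the strongest per gene, at least 15 nt apart, for genes off chromosome 18; the printed poly(A) signals were chosen after the values were seen. Placement was tested on simulated data. Python 3.11.15, numpy 2.4.6, scipy 1.17.1 and matplotlib 3.10.9 were used. Alternatives are given in the closing section.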

Additional observations from a re-analysis of the deposited data

How the results depend on the processing

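No paired analysis was possible because the deposited lists pool the replicates, and leaving out a replicate was not possible for the same reason. Of 30 alternatives, 16 left their result within tolerance, 10 moved it and 4 turned it to the other side of the middle of all genes. The tolerance was 1.5 times for counts, 0.05 for a log2 ratio, 1 percentile point, and the exact 95% interval for shares. That interval was 68.0 to 70.6% for height and 54.4 to 93.9% for the 19 deletion sites. For height it treats summed peak heights as counts of independent tags, which they are not. It thus served as a tolerance only and measures no spread. All 8 genes kept an exonic peak with peaks wholly inside the gene and with all transcripts, 7 did at or above the median height of 9 tags, and 5 at or above the 90th percentile of 74 tags, where 55.3% of genes did. The 3′ UTR share of height, 69.3%, was 71.8% with all transcripts, 71.8% with peaks of at least 9 tags and 83.1% with peaks of at least 74 tags. Placed by their 5′ end in place of the midpoint, peaks gave 57.0%, and by their 3′ end 79.8%: the 604-tag Gspt1 peak, for example, starts 50 nt before the end of the stop codon. The median log2 ratio of height to RPKM, 3.01 against 2.78 over all protein-coding genes, was 2.93 against 2.50 with a pseudocount of 5 and 2.93 against 2.58 with peaks of at least 9 tags. It lay below all genes with the tallest peak, 1.36 against 1.91, and with height per kb, 0.68 against 1.14. The median percentile, 56.4, was 65.0 with no RPKM minimum, 63.0 among all genes, and below the middle with the tallest peak (36.3) and with height per kb (37.9). The 3′ UTR share of deletion sites was 92.9% at 10 or more deletions a site and, in an alternative chosen after seeing the data, 85.7% of 7 sites without Etf1. Leaving out Etf1, likewise chosen after seeing the data, kept all 4 sites with a hexamer nearby. Depth limits the Smg6 peaks, the Smg5 coding site (21 tags) and the intronic Upf2 site (4 tags).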

Other observations

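An intronic position of Upf2 (chr2:5961751, plus strand) was in the deletion list with 4 deletions in 4 tags, an exact 95% interval of 39.8% to 100%, inside an intronic peak of 5 tags. It was counted in no result above. The 3′ UTR of Smg1 held 11 starts of AAAAAA and 5 of AATAAA in 4233 nt and no deletion site, at a tallest peak of 56 tags. In Etf1, which held 9 sites in its 3′ UTR, those counts were 5 and 1 in 2203 nt.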
